A study of Mus musculus with 66 samples.

Results

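A set of 8 genes of the Hippo/Yap pathway and of the fetal-type state of the gut epithelium were followed across 3 cultures of mouse small intestinal organoids. They are the coactivators Yap1 and Wwtr1 (Taz), the TEAD factors Tead1 and Tead3, the kinase Lats1, the angiomotin-like protein Amotl2, and the fetal-type genes Clu and Ly6a. Members were taken by gene symbol from the RNA table, which lists 5 of the 8 (Yap1, Tead1, Lats1, Clu and Ly6a, each with 1 RefSeq transcript) among 8978 gene symbols. That table is limited to transcripts whose proteins were also quantified, and it has no row for Wwtr1, Tead3 or Amotl2, which are therefore described from chromatin only. The organoids came from a mouse that carries Lgr5 GFPDTR/+. ENR is the standard culture and holds EGF, Noggin and R-Spondin-1. CV is ENR with 3 µM CHIR99021 (an inhibitor of the kinase GSK3) and 1 mM valproic acid (a histone deacetylase inhibitor) for 5 days, and EN is ENR without R-Spondin-1 for 2.5 days. The labels call CV enriched in and EN depleted of stem cells. The paper links the CV compounds to Wnt and Notch signalling and describes R-Spondin as an enhancer of Wnt signalling. Wnt input itself was not measured, and the cultures are not taken as a graded series of it. CV differs from ENR by both compounds at once, and their effects cannot be told apart. EN and CV differ by both compounds, by R-Spondin-1 and by days in medium, which cannot be told apart either. RNA was measured in 4 libraries per culture, open chromatin (ATAC-seq) in 4, the histone marks H3K27ac, H3K4me3 and H3K27me3 in 3 each, and binding of the nuclear receptor Hnf4g in 1. Nothing in the labels says that libraries came from separate cultures or animals, so p-values measure the spread between libraries, which may be technical.

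The Hippo pathway is a kinase relay in which Stk3 and Stk4 (Mst2 and Mst1), with the scaffold Sav1, activate Lats1 and Lats2, which phosphorylate Yap and Taz and keep them out of the nucleus. In the nucleus Yap and Taz bind TEAD factors, which supply the DNA contact, and switch on target genes that include some of their own inhibitors, such as Amotl2. In the intestine Yap is known for its role in regeneration after injury, when the epithelium transiently takes on features of fetal gut, among them Ly6a (Sca-1, a surface protein) and Clu (clusterin, a secreted chaperone).

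The 12 RNA libraries held 5630977 to 8859757 expected counts, and 3 counts, the lowest level read here as signal, corresponded to 0.361 to 0.642 CPM (counts scaled to 1000000 per library, with TMM factors). The culture labels were checked against marker lists, given as the range of summed CPM over the 4 libraries. Stem cell markers (7 genes, Lgr5 among them) summed to 634 to 684 in CV, 1770 to 1920 in ENR and 42 to 49.5 in EN. The higher sum in ENR came from Olfm4, with 1230 CPM in ENR and 10.9 in CV. By the test, 4 of the 7 were lower in CV than in ENR (Lgr5, Olfm4, Axin2 and Smoc2), Sox9 and Cd44 (147 against 36.1 CPM) were higher and Ascl2 did not pass, while all 7 were lower in EN than in both other cultures. Enterocyte markers summed to 6590 to 6970, 8380 to 9470 and 52200 to 54700, and proliferation markers to 1200 to 1240, 1660 to 1760 and 163 to 175. Goblet cell markers (5 genes) summed to 860 to 953 in CV, 1900 to 2060 in ENR and 9670 to 10800 in EN. Enteroendocrine markers (5 genes) summed to 25.1 to 38.1, 534 to 554 and 1460 to 1930. Tuft cell markers (3 of 4 in the table) summed to 0.809 to 2.77, 26.4 to 28.3 and 59.5 to 80. Paneth cell markers (6 genes) summed to 2870 to 3250, 5270 to 5690 and 1640 to 1870. Of cell types outside the epithelium, fibroblast markers (3 of 7 in the table) summed to 3.45 to 4.72, 7.42 to 8.84 and 20.9 to 26.3. This sum was mostly Vim, with means of 2.96, 7.96 and 23.3 CPM. Col1a1 passed as higher in CV (0.85 CPM) than in ENR, with at most 2 counts per library in ENR and EN. Col1a2 had at most 1 count in any library. Immune markers (1 tested of 7) summed to at most 3.31. No endothelial marker was in the table. Since these are bulk cultures, fewer cells of a type and less RNA per cell cannot be told apart.

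Among the measured members, RNA of Ly6a and Clu was highest in CV and lowest in EN, that of Tead1 was lower in EN than in both other cultures, and that of Yap1 and Lats1 was lowest in CV by a small margin. By edgeR's quasi-likelihood test, all 5 passed between EN and CV (adjusted p under 0.01), where 76.4% of 9288 transcripts did (35.2% higher and 41.2% lower in EN). EN differed from ENR in 3 of 5 (Tead1, Clu and Ly6a, all lower in EN) against 72.7% of transcripts (35.5% higher and 37.2% lower). CV differed from ENR in 4 of 5, with Clu and Ly6a higher and Yap1 and Lats1 lower in CV, against 60% of transcripts (30.2% higher and 29.8% lower). Most transcripts changed between these cultures, so the number of members called is not in itself a result about them. The plot of RNA by library shows that the groups called different did not overlap in any of these 12 calls. The share of all called transcripts without overlap was not computed, so this does not set the members apart. Levels can be compared between genes only per transcript length (TPM). On that scale Ly6a led in CV with 68.7 ± 6.45 TPM (SD, n = 4), above 78.4% of transcripts, and had 2.93 ± 1.07 TPM in EN, above 15.5%. Clu went from 22 ± 3.9 to 2.28 ± 0.688 TPM and Tead1 from 7.09 ± 1.01 to 1.91 ± 0.298 TPM, whereas Yap1 had 19.7 to 24.9 TPM and Lats1 14.7 to 16.6 TPM in the mean of each culture. In EN, Yap1 and Lats1 were thus the most abundant of the 5 and Tead1 the least, with Clu and Tead1 within each other's spread.

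**Figure D1:**
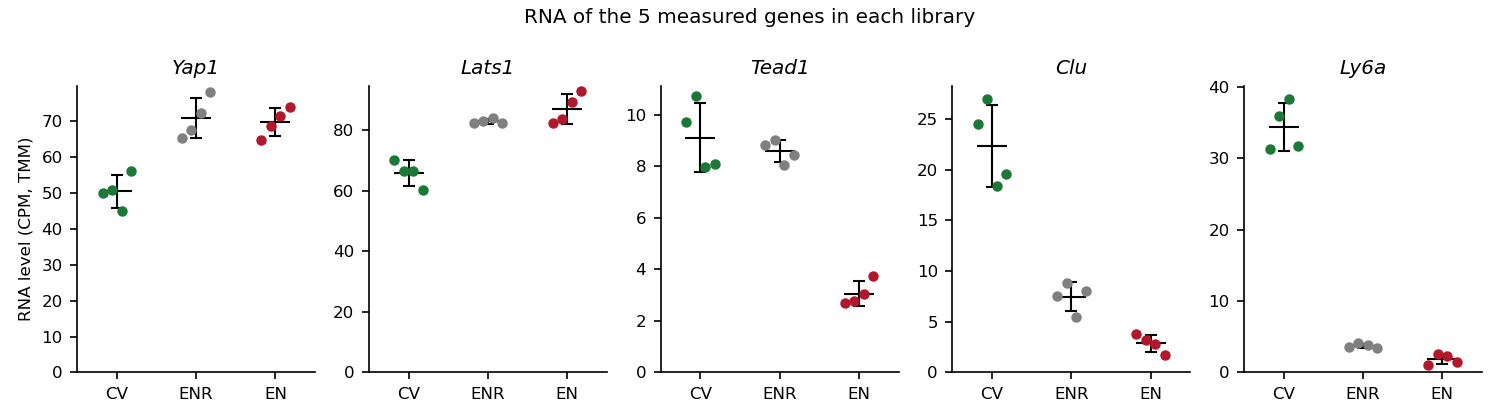
RNA level in CPM (y axis, from 0) in each of the 4 libraries of CV, ENR and EN for Yap1, Lats1, Tead1, Clu and Ly6a. Points are libraries and black bars are the mean and SD. Ly6a is 31.3 to 38.3 CPM in CV and at most 4.09 in any other library, Tead1 is low in EN alone, and Yap1 and Lats1 are low in CV.

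Yap1, the coactivator that carries the output of the pathway, lies on the minus strand of chr9:7931999-8004596 (mouse build mm9, as all positions here). Its RNA was 50, 50.7, 44.9 and 56 CPM in CV, 65.4, 67.6, 72.3 and 78.1 in ENR and 64.7, 68.7, 71.5 and 74 in EN. CV lay below both other cultures in every library, and ENR and EN overlapped. EN exceeded CV by a log2 difference of 0.47 (SE 0.07, adjusted p = 3e-05), and CV lay below ENR by -0.49 (SE 0.07, adjusted p = 2.6e-05). EN and ENR differed by -0.02, with a 95% interval of -0.19 to 0.14, that is, less than the spread between libraries. The promoter region of Yap1 (chr9:8003193-8005074, over the first exon) was open in every library, with an ATAC score of 133 ± 10.7 (SD, n = 4) in CV, 148 ± 15.6 in ENR and 162 ± 20.2 in EN, and the comparison of EN with CV did not pass (log2 difference 0.28, adjusted p = 0.056). H3K27ac, a mark of active promoters and enhancers, scored 154, 112 and 155 in CV, 225, 302 and 264 in ENR and 239, 307 and 231 in EN, with CV below the others in every library (EN against CV 0.88, SE 0.18, adjusted p = 0.0015, and CV against ENR -0.91, adjusted p = 0.0041). The latter call was lost without ENR replicate 2 (0.06) or 4 (0.057).

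The H3K27ac difference at Yap1 was shared by strongly marked promoters at large. Of 3287 regions near a start site with a mean H3K27ac score of at least 100, 52.1% passed between EN and CV, with a median log2 difference of 0.71, and 26.2% passed between CV and ENR, with a median of -0.54. Summed H3K27ac scores were 1345873 to 1406651 in the CV libraries, 1372095 to 1506573 in ENR and 1622103 to 1760511 in EN. With quantile normalization in place of the deposited scale, the EN against CV difference at Yap1 was 0.20 and did not pass. At H3K4me3, a mark of active start sites, Yap1 scored 103 in CV, 153 in ENR and 178 in EN in the mean, and no comparison passed.

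A region inside an intron of Yap1, chr9:7967929-7968357, is shown because it held Hnf4g reads. The capitals mark a match to CAAAGTCCA, the letters searched for HNF4 factors on both strands, which 2.28% of 94334 region windows of 300 bases hold. The window is read on the plus strand of mm9.
Yap1 intron, chr9:7967993-7968292: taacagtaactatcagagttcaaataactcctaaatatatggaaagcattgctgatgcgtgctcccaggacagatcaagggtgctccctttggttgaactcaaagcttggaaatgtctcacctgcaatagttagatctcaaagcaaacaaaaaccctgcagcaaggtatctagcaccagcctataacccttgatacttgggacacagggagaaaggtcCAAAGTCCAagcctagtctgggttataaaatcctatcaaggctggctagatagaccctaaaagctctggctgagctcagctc
The single ENR library had 28 Hnf4g reads there, or 79.4 RPM (reads scaled to 1000000 in regions) (exact 95% Poisson interval 52.8 to 115), above 98.3% of regions. The single EN library had 54 reads or 29.7 RPM (22.3 to 38.8), and the CV library had 1. Hnf4g depth differed widely, with 84340 reads in regions in CV, 352600 in ENR and 1816497 in EN, so that 3 reads are worth 35.6, 8.51 and 1.65 RPM. With 1 library per culture there is no replicate check, and these intervals cover counting error only. At the promoter of Yap1, Hnf4g stood at 156 RPM in ENR and 185 RPM in EN.

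Wwtr1 encodes Taz, the paralog of Yap, and lies on the minus strand of chr3:57259571-57379832. Of the 8 member regions near a start site, its promoter had the largest ATAC difference between EN and CV. The ATAC score of the region over its start (chr3:57378869-57380271) was 64, 48, 48 and 46 in CV, 30, 26, 29 and 21 in ENR and 12, 10, 11 and 13 in EN. The 3 cultures did not overlap, and each step passed: EN was below CV by a log2 difference of -2.06 (SE 0.17, adjusted p = 8.4e-08), EN was below ENR by -1.13 (adjusted p = 0.00012), and CV was above ENR by 0.93 (adjusted p = 0.0012). For comparison, the median over regions near a start site whose mean ATAC score was 20 to 50 was -0.12 between EN and CV.

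A second Wwtr1 region, 7.94 kb before the gene (chr3:57387550-57387992), had ATAC scores of 18, 17, 15 and 15 in CV, 6, 3, 5 and 6 in ENR and 1, 2, 4 and 2 in EN. CV stood above both other cultures in every library, while ENR and EN overlapped. The log2 difference was -2.48 between EN and CV (SE 0.30, adjusted p = 4.3e-06) and 1.55 between CV and ENR (adjusted p = 0.0016). The step from ENR to EN was smaller (-0.93, adjusted p = 0.03), and the call was lost without ENR replicate 1, 3 or 4 or EN replicate 1 or 4 (adjusted p from 0.053 to 0.087).

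The histone marks at the Wwtr1 promoter were measured in 3 libraries per culture. H3K4me3 scored 75, 61 and 65 in CV, 69, 47 and 50 in ENR and 33, 21 and 20 in EN, with EN below both other cultures in every library (EN against CV -1.44, adjusted p = 0.011, and EN against ENR -1.15, adjusted p = 0.027). H3K27ac scored 33, 24 and 40 in CV, 17, 12 and 13 in ENR and 12, 7 and 7 in EN, and the EN against CV difference of -1.80 (adjusted p = 0.02) was lost without CV replicate 5 (0.07), EN replicate 3 (0.092) or EN replicate 4 (0.094). H3K27me3, the mark of Polycomb repression, scored 22, 14 and 14 in CV, 60, 75 and 49 in ENR and 45, 40 and 37 in EN. CV lay below both other cultures in every library for this mark, but no comparison passed (CV against ENR -1.83, adjusted p = 0.094). H3K4me3 at this promoter lost its EN against CV call without CV replicate 2 (adjusted p = 0.053) or EN replicate 2 (0.074), and its EN against ENR call without any ENR library or without EN replicate 2 or 4 (0.058 to 0.083).

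The sequence before Wwtr1 and the centre of its upstream region are shown because they carried these differences. Capitals mark matches to the letters searched on both strands: GGAATG or its reverse CATTCC for TEAD factors, and CTTTGAT for the Wnt-dependent TCF/LEF factors. The first is read on the minus strand, the strand of the gene, and ends at the base before it.
Wwtr1 upstream, chr3:57379833-57380132: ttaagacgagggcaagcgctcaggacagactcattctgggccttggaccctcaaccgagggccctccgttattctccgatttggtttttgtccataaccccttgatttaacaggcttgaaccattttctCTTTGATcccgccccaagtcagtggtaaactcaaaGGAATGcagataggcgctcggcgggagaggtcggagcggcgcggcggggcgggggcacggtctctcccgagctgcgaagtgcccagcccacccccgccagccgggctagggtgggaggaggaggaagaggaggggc
Wwtr1 region, plus strand, chr3:57387621-57387920: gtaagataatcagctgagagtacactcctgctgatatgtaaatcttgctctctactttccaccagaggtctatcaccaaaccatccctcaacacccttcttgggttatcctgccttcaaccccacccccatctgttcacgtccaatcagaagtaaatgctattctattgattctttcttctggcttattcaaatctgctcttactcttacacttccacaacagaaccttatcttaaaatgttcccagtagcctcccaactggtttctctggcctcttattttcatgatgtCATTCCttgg
A TEAD match is common. It occurs in 13.8% of the 300-base windows before 22344 protein-coding genes and in 16.8% of region windows, while the TCF/LEF letters occur in 3.71% and 5.57%. The windows before Amotl2, Tead1, Tead3, Wwtr1 and Yap1 hold the TEAD letters, and those before Clu, Lats1 and Ly6a do not.

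**Figure D2:**
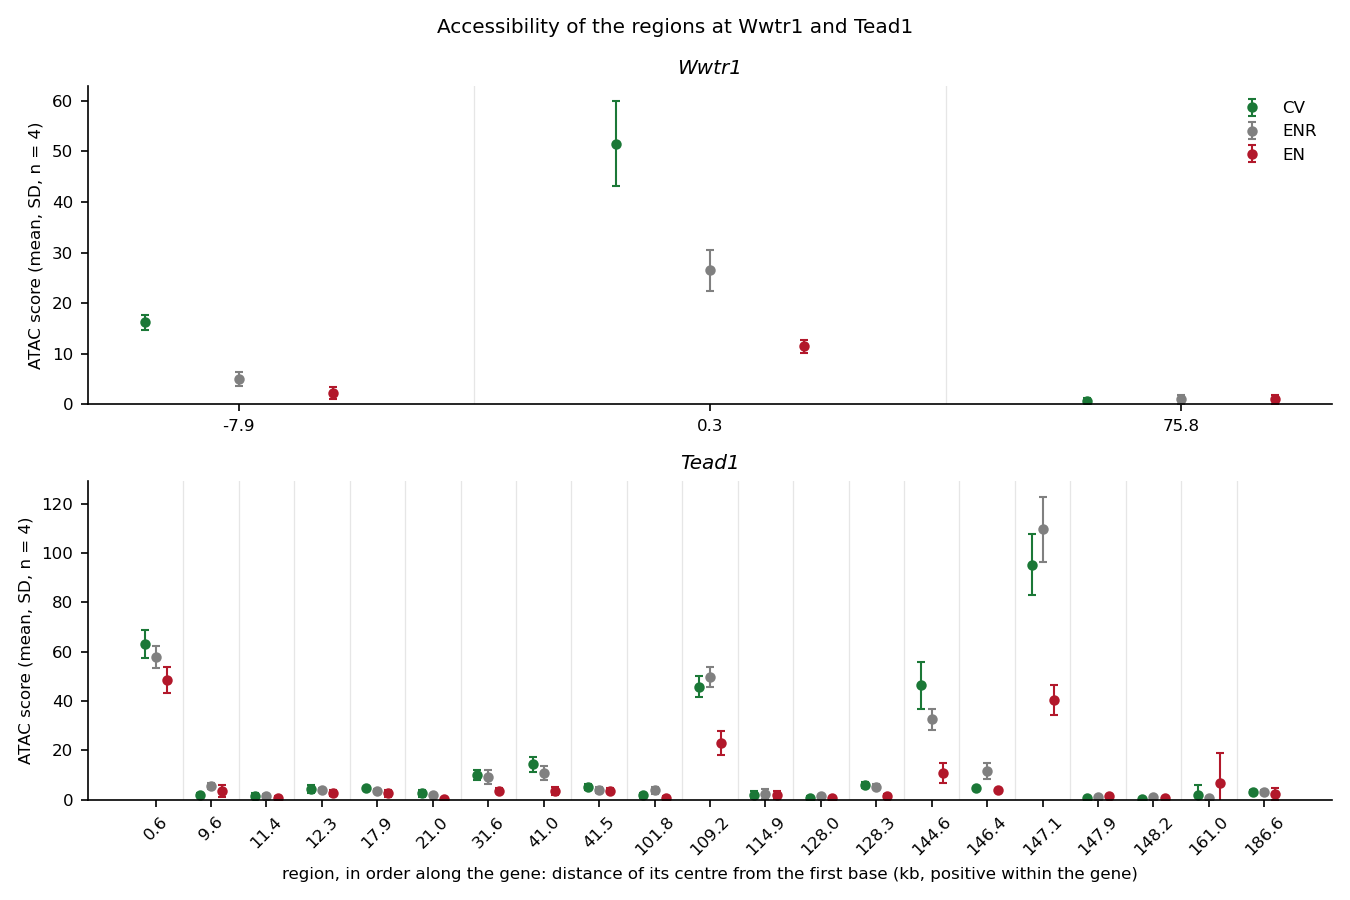
ATAC score (y axis, from 0; mean with SD bars, n = 4 libraries) of each region of Wwtr1 (top) and Tead1 (bottom), in order along the gene and spaced evenly, with the distance of the region centre from the first base in kb on the x axis. At Wwtr1 the promoter and the region 7.94 kb before it step down from CV to ENR to EN. At Tead1 the intronic regions near 109 and 147 kb are lower in EN than in the other cultures.

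Another region, 75.8 kb inside Wwtr1 (chr3:57303898-57304161), behaved differently and had almost no accessibility (ATAC scores of 0 to 2). Its H3K27me3 score was 156, 182 and 142 in CV, 113, 39 and 49 in ENR and 45, 50 and 39 in EN. CV was above both other cultures in every library, but the EN against CV call (-1.82, adjusted p = 0.044, where 0.528% of all regions passed) was lost without any CV library or without EN replicate 1 or 4 (0.11 to 0.24), and the log2 difference was -0.94 after quantile normalization. The same region had 40 Hnf4g reads in CV, or 474 RPM (339 to 646), against 28.4 RPM in ENR and 6.61 in EN. Both assays thus had their highest values in CV at a region that was not open.

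Tead1, which supplies the DNA contact for Yap and Taz, lies on the plus strand of chr7:119822832-120050319. Its RNA was 9.7, 10.7, 7.95 and 8.07 CPM in CV, 8.83, 9, 8.05 and 8.43 in ENR and 2.68, 2.78, 3.03 and 3.74 in EN. CV and ENR overlapped and every EN library lay below them, at 13 to 26 counts per library. EN fell below CV by -1.56 on the log2 scale (SE 0.16, adjusted p = 2.3e-07) and below ENR by -1.48 (SE 0.16, adjusted p = 5.5e-07), while CV and ENR differed by 0.08 (95% interval -0.23 to 0.40). The fall in EN accompanied the loss of stem cell and proliferation markers given above, and the part of these cells in it was not tested.

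At the Tead1 promoter (chr7:119822308-119824632) the difference was small. ATAC scores were 56, 62, 70 and 64 in CV, 62, 61, 53 and 55 in ENR and 48, 45, 56 and 45 in EN, so that groups overlapped, and the EN against CV call (-0.37, adjusted p = 0.028) was lost without CV replicate 2, 3 or 4, or EN replicate 2 or 4. No histone mark at this promoter passed in any comparison. The larger differences lay in the introns. Of 19 Tead1 regions away from start sites, 7 had lower ATAC scores in EN than in CV and none higher (35.2% of all regions passed in that comparison, 15.6% as lower), and 9 were lower in EN than in ENR and none higher (24% passed, 12.5% as lower). Their median log2 differences were -0.63 and -0.68, and 1 region was lower in CV than in ENR (15.8% passed, 10.7% as lower).

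Among the most open of these Tead1 regions, a pair lay near 109 and 147 kb from the first base of the gene. The first (chr7:119931786-119932212) scored 45, 43, 52 and 43 in CV, 55, 50, 45 and 49 in ENR and 26, 26, 16 and 24 in EN (EN against CV -0.98, adjusted p = 0.00012). The other (chr7:119969624-119970165) scored 83, 87, 101 and 110 in CV, 124, 115, 93 and 106 in ENR and 32, 46, 41 and 43 in EN (EN against CV -1.22, adjusted p = 2.5e-06, and EN against ENR -1.42, adjusted p = 1.6e-06). EN lay below the other cultures in every library at both, and neither passed between CV and ENR. Across the 19 regions away from start sites, H3K27ac was lower in EN than in CV at 3 and higher at 0 by limma (median -0.44). Of all regions, 1.96% passed as lower and 5.07% as higher. At the first region of the pair it was lower by -1.94, a call lost under each of 5 other settings and on leaving out 7 of the libraries in turn. H3K27ac at the latter region was 17, 18 and 17 in CV and 28, 34 and 36 in EN, opposite in direction to its accessibility, and did not pass.

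The centre of the latter region is shown because it was the most open Tead1 region away from start sites in CV. It is read on the plus strand, and capitals mark CTTTGAT, the TCF/LEF letters.
Tead1 intron, chr7:119969744-119970043: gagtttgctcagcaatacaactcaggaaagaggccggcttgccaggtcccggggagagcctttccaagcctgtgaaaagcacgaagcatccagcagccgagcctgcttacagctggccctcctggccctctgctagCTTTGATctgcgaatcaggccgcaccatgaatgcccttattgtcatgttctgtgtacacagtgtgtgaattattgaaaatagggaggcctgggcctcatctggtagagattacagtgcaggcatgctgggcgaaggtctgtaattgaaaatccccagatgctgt
Of the 19 Tead1 windows away from start sites, 6 held the TEAD letters and 6 TGANTCA, the letters searched for AP-1 factors, where 18.1% and 19.8% of all windows away from start sites did.

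Tead3, a second TEAD factor, lies on the minus strand of chr17:28468616-28487750. Its promoter (chr17:28486445-28488305) had ATAC scores of 58.8 ± 3.77 in CV, 71.2 ± 8.22 in ENR and 69 ± 7.26 in EN, and no comparison passed. H3K27ac scored 138, 117 and 116 in CV, 172, 240 and 247 in ENR and 162, 235 and 242 in EN. CV lay below both in every library (EN against CV 0.76, adjusted p = 0.014, and CV against ENR -0.81, adjusted p = 0.024), close to the medians of strongly marked promoters given above, and 0.11 between EN and CV after quantile normalization. The EN against CV call was lost without CV replicate 5 or EN replicate 3 or 4 (adjusted p from 0.076 to 0.13), and the CV against ENR call held only without CV replicate 3, ENR replicate 1 or EN replicate 2. A region over an exon of the same gene (chr17:28477988-28478498) was less open in EN (39.8) than in CV (56.8, log2 difference -0.50, adjusted p = 0.018), a call lost without CV replicate 2 (0.073) or EN replicate 4 (0.05). This promoter had a higher Hnf4g RPM than any other member region in ENR and EN, with 332 RPM in CV (221 to 480), 496 in ENR (426 to 576) and 306 in EN (281 to 333), above 99.9% of regions in CV and EN. In CV the Wwtr1 intron described above had more.

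Lats1, the kinase that phosphorylates Yap and Taz, lies on the plus strand of chr10:7401007-7436256. Its RNA was 70.1, 66.5, 66.5 and 60.1 CPM in CV, 82.2, 83.1, 84 and 82.4 in ENR and 82.2, 83.7, 89.4 and 92.9 in EN. As for Yap1, every CV library lay below the others, and EN and ENR overlapped. EN was above CV by 0.41 (SE 0.05, adjusted p = 4.5e-06) and CV below ENR by -0.33 (SE 0.05, adjusted p = 5.1e-05), while EN and ENR differed by 0.07 (95% interval -0.05 to 0.19). Its promoter (chr10:7400384-7402088) moved the same way. ATAC scores were 50, 47, 49 and 45 in CV, 65, 68, 83 and 75 in ENR and 80, 76, 56 and 79 in EN (EN against CV 0.58, adjusted p = 0.0022, and CV against ENR -0.59, adjusted p = 0.0055), where the median of regions near a start site with a mean score of 50 to 100 was 0.05 and -0.05. H3K27ac was 103 in CV, 184 in ENR and 188 in EN in the mean (0.85 between EN and CV, adjusted p = 0.013), and 0.25 after quantile normalization, which did not pass. That call was also lost without CV replicate 3 or EN replicate 3 or 4 (adjusted p from 0.062 to 0.17), and CV against ENR (-0.85, adjusted p = 0.033) held only without CV replicate 4.

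The rise of Yap1 and Lats1 RNA from CV to EN depended on the scaling, as the plot of 7 scalings shows. With library totals alone the differences were 0.04 and -0.02, with spike-ins 0.03 and -0.01, and on log2(TPM + 1) 0.15 and 0.08, none of which passed, whereas the deposited copy numbers gave 1.25 and 1.15. The median of all transcripts moved along, from -0.08 with the main scaling to -0.50, -0.49, -0.34 and 0.62. Relative to that median, Yap1 was higher by 0.49 to 0.63 and Lats1 by 0.42 to 0.53 under each of these scalings. The falls of Tead1, Clu and Ly6a from CV to EN passed under each of them. Their smaller falls from ENR to EN did not pass with copy numbers (-0.33, -0.25 and -0.04), where the median of all transcripts was 0.88. Copy numbers and spike-in scaling thus moved the median between EN and CV in opposite directions (0.62 and -0.49). Summed copies also varied within a culture, from 498750 to 1577575 among the ENR libraries.

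**Figure D3:**
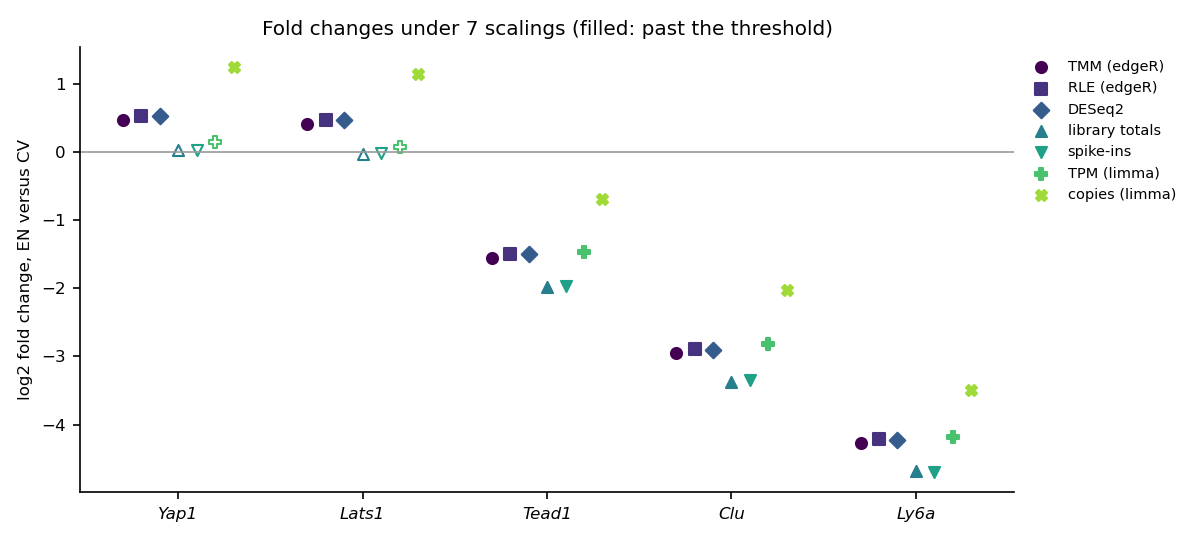
Log2 fold change of RNA between EN and CV (y axis) for the 5 measured genes under 7 scalings, each with its own marker. Filled symbols passed an adjusted p of 0.01. Yap1 and Lats1 lie between -0.02 and 1.25 depending on the scaling, while Ly6a, Clu and Tead1 stay below 0.

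Amotl2, an inhibitor of Yap and itself a Yap/TEAD target, lies on the plus strand of chr9:102619002-102635748. Its promoter (chr9:102619571-102621220) had ATAC scores of 70, 77, 60 and 53 in CV, 88, 92, 99 and 89 in ENR and 110, 82, 95 and 93 in EN. CV lay below the others in every library (EN against CV 0.55, adjusted p = 0.0027, and CV against ENR -0.51, adjusted p = 0.011). H3K27ac did not follow accessibility at this promoter: it was 58, 49 and 60 in CV, 118, 104 and 138 in ENR and 57, 56 and 60 in EN, highest in ENR in every library. EN was below ENR by -1.04 (adjusted p = 0.049) and CV below ENR by -1.09 (adjusted p = 0.033), and both calls were fragile: the first was lost without any ENR or EN library or CV replicate 5, and the second held only without CV replicate 3. An intronic region (chr9:102628354-102628977) had ATAC scores of 24, 23, 21 and 18 in CV, 44, 53, 41 and 52 in ENR and 31, 43, 32 and 65 in EN (EN against CV 0.90, adjusted p = 0.0018, and CV against ENR -1.11, adjusted p = 0.0011). H3K27ac at this intronic region averaged 8.67 in CV, 14.3 in ENR and 27 in EN. It passed between EN and CV (1.92), in the direction of the ATAC rise, but held in only 1 of the fits that left out a library. Hnf4g reads in the region were 19.9 RPM in ENR (7.98 to 40.9) and 86.4 in EN (73.4 to 101), above 98.1% of regions in EN.

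Clu lies on the plus strand of chr14:66587320-66600385. Its RNA was 24.5, 27, 18.4 and 19.6 CPM in CV, 7.55, 8.84, 5.47 and 8.05 in ENR and 3.75, 3.21, 2.85 and 1.73 in EN (12 to 28 counts). The cultures did not overlap, and each step passed: EN was below CV by -2.95 (SE 0.21, adjusted p = 3.2e-09), EN below ENR by -1.37 (SE 0.23, adjusted p = 6.3e-05) and CV above ENR by 1.58 (SE 0.18, adjusted p = 1.7e-06). Chromatin at its promoter (chr14:66587253-66588035) did not show the step between CV and ENR. ATAC scores were 78, 73, 78 and 74 in CV, 85, 70, 74 and 72 in ENR and 27, 56, 61 and 48 in EN, a log2 difference of 0.01 between CV and ENR (SE 0.19) and of -0.71 between EN and CV (adjusted p = 0.0057). H3K27ac and H3K4me3 were weak there, with mean scores of at most 10 and 13.7, and no comparison passed. An intronic region of Clu (chr14:66596776-66597078) had low ATAC scores that ran opposite to the RNA, at 2, 3, 5 and 3 in CV, 7, 8, 9 and 8 in ENR and 12, 11, 4 and 13 in EN. EN was above CV by 1.31 (adjusted p = 0.0037), though the groups overlapped, and CV was below ENR by -1.12 (adjusted p = 0.023). The latter call was lost without CV replicate 1 or 2 or ENR replicate 2, 3 or 4 (0.055 to 0.074).

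Ly6a lies on the minus strand of chr15:74825308-74828064. Its RNA was 31.3, 36, 38.3 and 31.8 CPM in CV, 3.58, 4.09, 3.8 and 3.4 in ENR and 1.07, 2.57, 2.32 and 1.44 in EN (8 to 13 counts). CV was 9.25-fold above ENR (log2 3.21, SE 0.15, adjusted p = 8.1e-11) and EN 19.3-fold below CV (log2 -4.27, SE 0.17, adjusted p = 3e-12). The step from ENR to EN was -1.06 (SE 0.22, adjusted p = 0.00047), again with no overlap. Between CV and ENR the stem cell markers given above moved in both directions, and the part of cell composition in the Ly6a difference was not tested. No accessible region of the table lies in Ly6a or within 10 kb before it. Of 9 Ly6 family genes listed only 2, Ly6a and Ly6e, are in the table. Whether reads of the others were counted for Ly6a was not tested.

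At the promoters of the 7 members that had a region (8 regions near a start site, 2 of them at Tead1), ATAC passed at 5 regions between EN and CV (2 higher in EN, Lats1 and Amotl2, and 3 lower, Wwtr1, Tead1 and Clu) where 34.5% of 18058 regions near a start site did (18.6% higher and 15.9% lower). In EN against ENR 2 were lower (Wwtr1 and Clu) and 0 higher by limma, where 19.8% passed (9.76% higher and 10.1% lower). In CV against ENR 3 passed (Wwtr1 higher, Lats1 and Amotl2 lower), where 14.6% did (5.85% higher and 8.77% lower). H3K27ac passed at 4, 1 and 4 regions in these comparisons (19%, 3.72% and 6.82%), H3K4me3 at 1, 1 and 0 (9.6%, 5.72% and 0.935%), each time Wwtr1, and H3K27me3 at 0 by limma (0.37%, 0.0498% and 1.6%). The plot of promoter signal sets the 4 assays side by side. At 33 further regions in the genes or within 10 kb before them, ATAC passed at 2 higher and 10 lower between EN and CV, with 7 of the lower ones in Tead1, where 19.6% of all regions were higher and 15.6% lower. For EN against ENR it passed at 3 higher and 11 lower (11.6% and 12.5% of all regions), and for CV against ENR at 1 higher and 3 lower (5.11% and 10.7%). At these regions H3K27ac passed at 1 higher and 3 lower between EN and CV (5.07% and 1.96% of all regions). H3K4me3, tested at 28, passed at 1 lower between EN and CV (2.15%) and 2 lower between EN and ENR (0.7%). H3K27me3 passed at 1 lower between EN and CV (0.388%), the Wwtr1 intron above. Each of these mark calls was lost on leaving out some library.

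**Figure D4:**
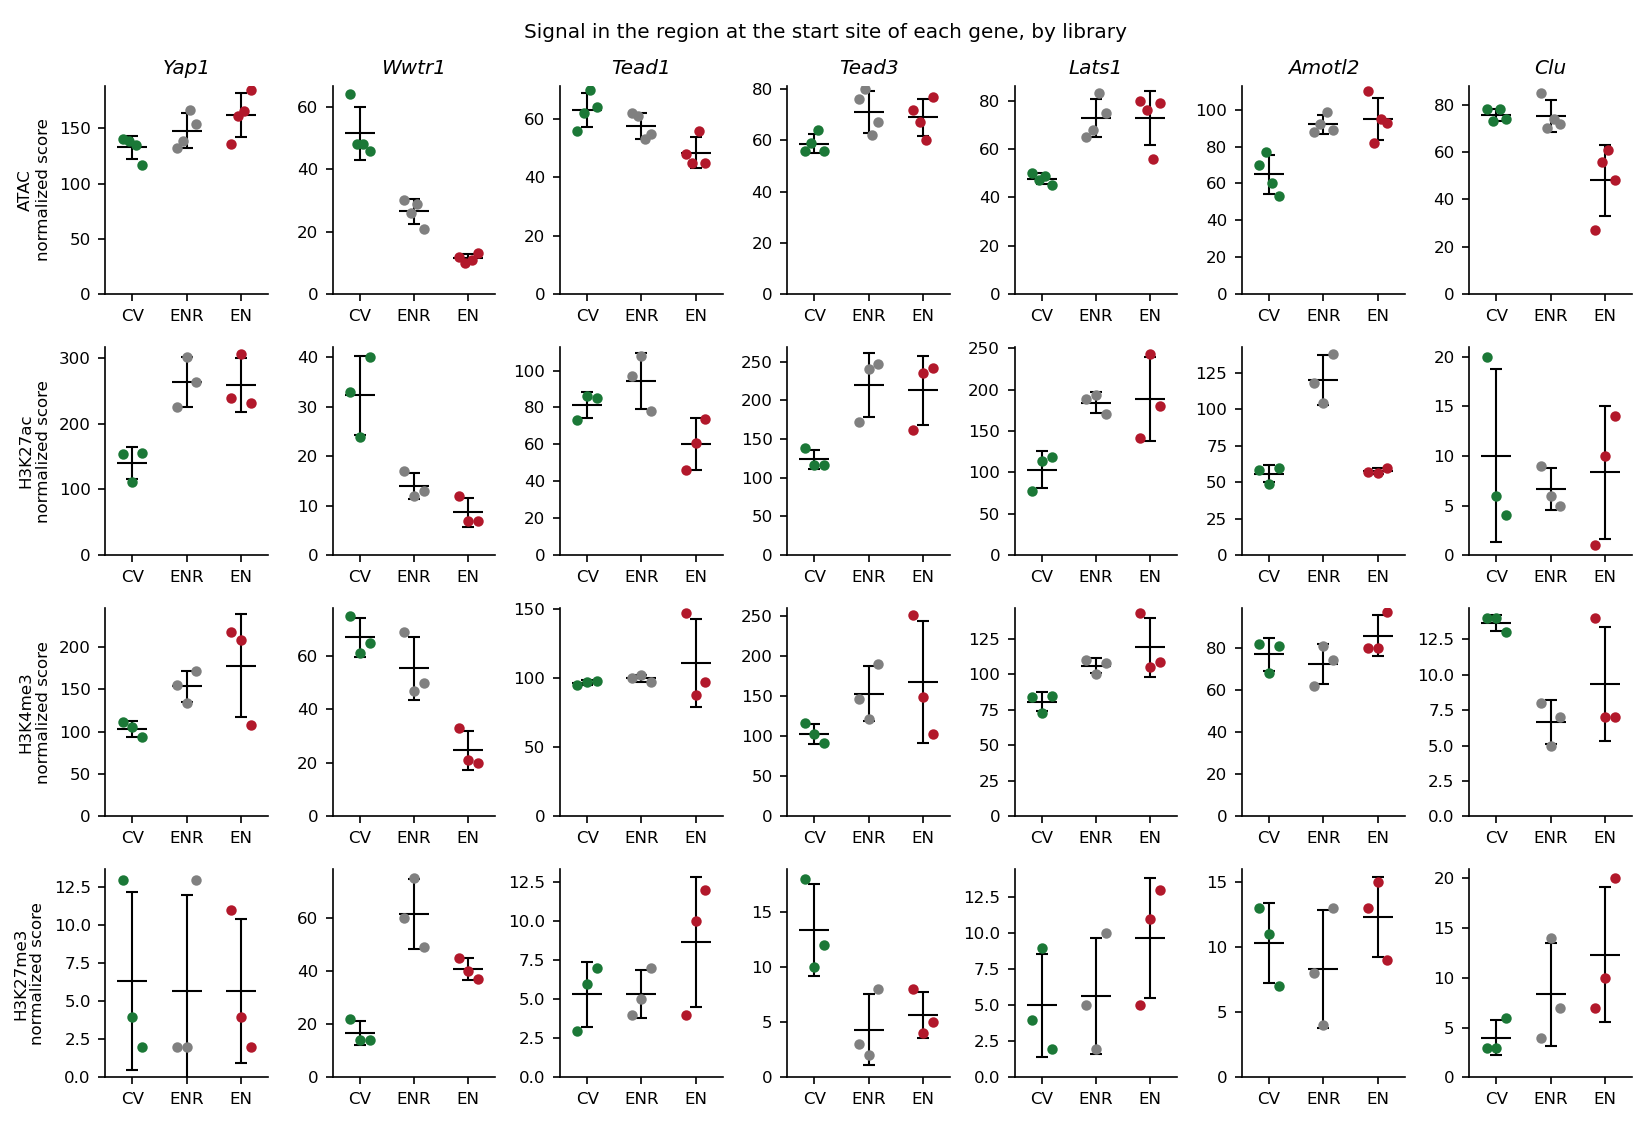
Normalized score (y axes, from 0, scaled per panel) of ATAC, H3K27ac, H3K4me3 and H3K27me3 in the region at the start of each of 7 genes. Points are libraries (4 per culture for ATAC, 3 for the marks), and black bars are the mean and SD. The Wwtr1 column steps down from CV to EN in ATAC, H3K27ac and H3K4me3, with H3K27me3 lowest in CV. For Tead1 the region at the first base is shown.

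The other genes of the pathway in the table moved in both directions. Of the TEAD factors and cofactors, 2 of 7 were measured and both fell from CV to EN (median of all transcripts -0.08): Tead1, and Vgll4, which competes with Yap for TEAD, with 67.9 CPM in CV, 94.9 in ENR and 31.9 in EN (EN against CV -1.09, adjusted p = 8.2e-10, not passing with copy numbers). Promoter accessibility of this group fell at 5 of 12 regions between EN and CV (at Tead1, Tead2, Tead4, Vgll3 and Vgll4) and rose at 0 by limma, where 15.9% of regions near a start site passed as lower. Of the Hippo kinase core, 5 of 7 were measured. Lats1 and Sav1 (0.47) rose from CV to EN, Stk3 fell from 55.8 CPM in CV to 33 in ENR and 21.3 in EN (-1.38, adjusted p = 4.4e-09, not passing with copy numbers), and Stk4 (-0.15) and Mob1a (0.08) did not pass. The rises of Lats1 and Sav1 did not pass with library totals, spike-ins or TPM. Of 8 promoter regions of the kinase core, 3 gained accessibility from CV to EN (Lats1, Sav1 and Stk3) and 0 lost it by limma. Of regions near a start site, 18.6% passed as higher and 15.9% as lower. Stk3 thus moved in opposite directions in RNA and ATAC.

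Upstream regulators were measured in 16 transcripts of 14 of 23 genes, and 4 rose, 4 fell and 8 did not pass between EN and CV, where 35.2% of all transcripts rose and 41.2% fell. The largest were Mark2, a polarity kinase (23.3 CPM in CV, 35.1 in ENR and 57.3 in EN, 1.29 between EN and CV), Wwc1 (Kibra), an activator of the kinases (48.1, 59.4 and 111 CPM, 1.21), and Amot, the angiomotin that retains Yap in the cytoplasm (18.2, 25.6 and 9.81 CPM, -0.87, not passing with copy numbers). Of 27 symbols listed for Yap/TEAD target genes, which count Cyr61 and Ctgf also as Ccn1 and Ccn2, only 5 were in the table. They did not share a direction (median -0.03). Thbs1 (thrombospondin 1) fell from 9.76 CPM in CV to 4.73 in ENR and 0.679 in EN (EN against CV -3.87, adjusted p = 1.3e-09). At 3 to 5 counts per EN library it was near the lowest level read as signal, so this size is uncertain. Tgm2 (transglutaminase 2) fell from 173 to 124 and 62.5 CPM (-1.47, adjusted p = 1.3e-14). Dock5, an activator of Rac, rose from 43.4 to 61.2 and 124 CPM (1.52, adjusted p = 9.8e-13), and Myof (myoferlin), at 0.785, 0.803 and 1.98 CPM, rose by 1.32 (adjusted p = 0.0035), a call lost with totals, spike-ins and TPM, and without CV replicate 4 (adjusted p = 0.012). F3 (tissue factor) was at -0.03. At the promoters of the targets, ATAC was higher in EN than in CV at 7 regions and lower at 2 of 25 (18.6% and 15.9% of regions near a start site passed). In EN against ENR 1 was higher (Dock5) and 3 were lower, Cyr61 among them (9.76% and 10.1%). The marks at these 25 regions did not follow the ATAC count between EN and CV. H3K27ac was higher at 1 and lower at 4, with a median of -0.68 against 0.15 for all such regions (15.4% passed as higher and 3.55% as lower). H3K4me3 was higher at 0 and lower at 4 by limma, with a median of -0.55 against 0.05 (4.21% and 5.39%).

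**Figure D5:**
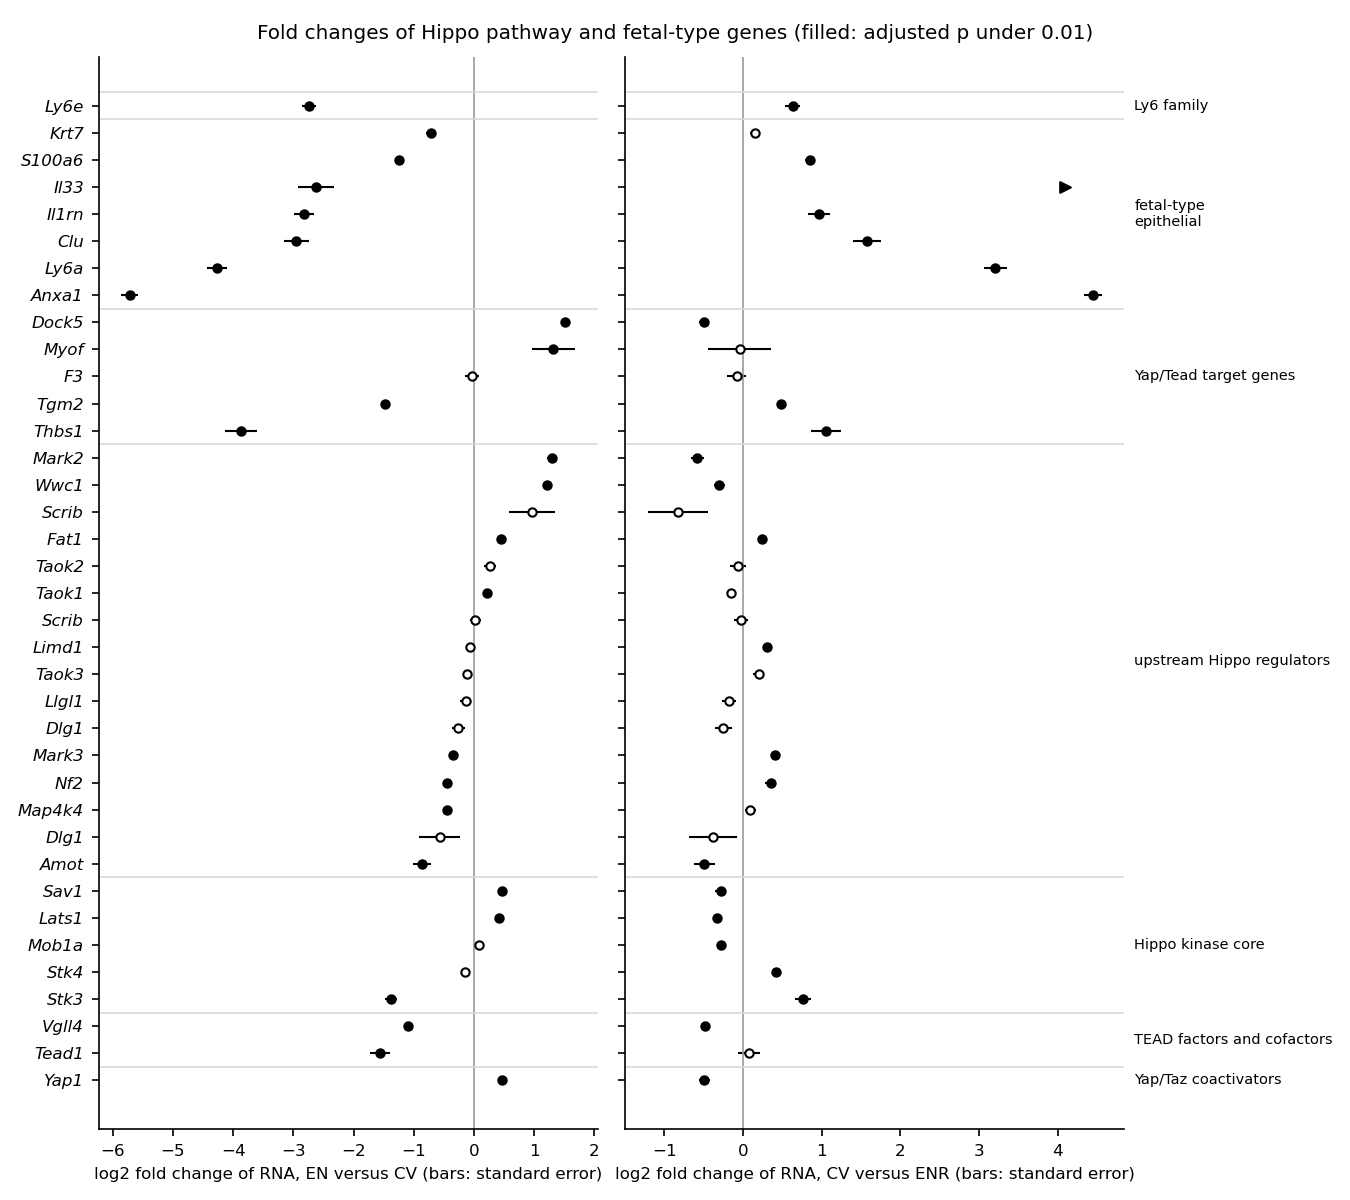
Log2 fold change of RNA (x axes) between EN and CV (left) and CV and ENR (right) for each measured transcript of the pathway and fetal-type lists, with bars for the standard error. Filled circles passed an adjusted p of 0.01, and the triangle is a lower bound for Il33, which is at most 3 counts in ENR. Fetal-type genes and Ly6e lie below 0 on the left and above 0 on the right. The kinase core, upstream regulators and targets lie on both sides of 0 in both panels. On the left Tead1 and Vgll4 lie below 0 and Yap1 above. Scrib and Dlg1 have 2 transcripts.

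Of 15 fetal-type and regenerative genes, 7 were measured, Clu and Ly6a among them. All 7 fell from CV to EN (median -2.82), where 41.2% of all transcripts did. In CV against ENR 6 were higher (30.2% of transcripts) and Krt7 (0.15) did not pass, and in EN against ENR 6 were lower (37.2%) and Il33 was higher. Anxa1 (annexin A1) changed most, with 140 CPM in CV, 6.42 in ENR and 2.78 in EN (EN against CV -5.72, SE 0.14, adjusted p = 5.3e-15). Il1rn, the interleukin-1 receptor antagonist, had 20.9, 10.7 and 2.9 CPM, and S100a6, a calcium-binding protein, 139, 77.2 and 58.3 CPM. Il33, an alarm cytokine, had 8.36 CPM in CV and 1.36 in EN, and 0 to 3 counts in each ENR library, so that CV was at least 17.0-fold and EN at least 2.77-fold higher than ENR (against 3 counts in the ENR library where these are worth most). With deposited copy numbers 5 of the 7 passed as lower between EN and CV and Krt7 turned above 0, while with the other 6 scalings all 7 passed. For EN against ENR 6 were below 0 with those 6 scalings, but 4 with copy numbers, where S100a6 (0.49) and Krt7 turned. Promoter regions were found for 10 of the 15 genes, among them Gja1 and Areg, which were not in the RNA table. At the measured genes chromatin followed the fall from CV to EN in part. Of 17 regions, 6 had lower ATAC scores in EN than in CV (at Anxa1, Clu, Gja1, Il1rn and S100a6) and 1 higher (Il33, opposite to its RNA), against 15.9% and 18.6% of regions near a start site. In CV against ENR 2 were higher (Areg and Gja1, both without RNA values), against 5.85%. No promoter region of a gene with higher RNA in CV than in ENR passed in ATAC. Ly6e, the other Ly6 family member measured, had 54.7, 35.3 and 8.23 CPM, lower in EN than in CV by -2.74 (adjusted p = 1.2e-11). These lists were chosen with earlier results of these data known, and their counts are a description.

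The transcripts most like each member over the 12 libraries were found by the root mean square (RMS) difference of log2(CPM + 1) profiles, each centred on its mean. For Yap1 they were Zbtb2 (RMS 0.085), Zfr and Pgm1 (both 0.089), and for Lats1 they were Ppp6r3 (0.039), Wapl (0.053) and Eif4g2 (0.058). For Tead1 they were Slc5a3 (0.122), Cct5 (0.125) and Cbx1 (0.126), each at about the same level in CV and ENR and lower in EN. For Clu they were Aldh7a1 (0.221), Fggy (0.224) and Sdr42e1 (0.226), and for Ly6a Rab34 (0.268), Tnfrsf19 (0.269) and Akr1b8 (0.271). Akr1b8 had 145 CPM in CV, 24.7 in ENR and 10.5 in EN. Rab34 had 9.4, 0.42 and 0 CPM and Tnfrsf19 11.8, 0.398 and 0. At such low levels the added 1 shrinks the differences between cultures.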

How the data were processed

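RNA, ATAC-seq and ChIP libraries of CV, ENR and EN organoids were analysed from the deposited tables, with groups taken from the sample labels. The authors estimated the deposited expected counts and TPM per RefSeq transcript with kallisto (0.43.0 in the submitters' processing notes), with an index limited to transcripts of quantified proteins, and set deposited copy number scores from 92 spike-ins. They aligned chromatin reads to mm9 with BWA, removed duplicates with Picard, called peaks with MACS2 2.0 and deposited normalized read counts for the merged peak set in whole numbers, which are treated here as scores (H3K27me3 regions extended to 1000 bp), and raw Hnf4g read counts. Which method normalized the scores is not given in the sources used here.

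Expected counts were rounded, spike-ins left out (0.837% to 1.36% of counts), transcripts above 0 in at least 4 libraries kept (9288), and all 12 libraries fitted in a single model with edgeR 4.0.16 (TMM, quasi-likelihood F-test). Scores were tested as log2(score + 1) with limma 3.58.1 (trend) in R 4.3.3, for regions above 0 in at least 3 libraries, so that a log2 difference understates changes of low scores. Benjamini-Hochberg adjustment ran over all transcripts or regions, and calls were made at 0.01 (RNA) and 0.05 (chromatin), two-sided. A promoter region lies within 500 bp of a GENCODE vM1 start site, and other regions lie in the gene or 10 kb before it. Sequences come from the mm9 reference. Summed scores were 1752385 to 2109261 (ATAC), 1345873 to 1760511 (H3K27ac), 817265 to 1100967 (H3K4me3) and 1010511 to 1327017 (H3K27me3), and raw depth of these is unknown.

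All members are named, along with list genes called with non-overlapping groups and an absolute log2 fold change of at least 1 (in a comparison, at most 6 per list, by size from CV to EN), and the 3 transcripts closest to each member. F3, Sav1, Stk4, Mob1a and Krt7 were named after their values were seen, as were the genes given for promoter calls. Members and lists were chosen with earlier results of these data known. The fits were tested on simulated data. Alternatives were other scalings, filters, thresholds, DESeq2 1.42.0, limma on TPM and copies, a replicate block and leaving out each library. Libraries of Hnf4g knockout organoids and their control were not analysed here, nor the histone mark libraries beyond the 27 in the table, of 37 in the labels. The sequence and values of a Tead1 region are not reported here.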

Additional observations from a re-analysis of the deposited data

Results flagged for a closer look

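In 72 groups of 4 libraries (member RNA, ATAC at member promoters, and called ATAC regions with a mean score of at least 10 in a culture), 4 held a library whose distance to its nearest neighbour, as a share of the group's range, exceeded the 95% critical value of Dixon's test (0.829). Chance flags about 1 group in 20. At the Lats1 promoter, EN replicate 3 had an ATAC score of 56 against 80, 76 and 79 (share 0.833), and the call against CV passed without it. At the Wwtr1 promoter, CV replicate 1 had 64 against 48, 48 and 46 (share 0.889). In Tead1, EN replicate 2 had 5 against 3 in each other library at chr7:119854360-119854541 (share 1.0), and ENR replicate 1 had 15 against 9, 9 and 10 at chr7:119863660-119864091 (share 0.833).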

How the results depend on the processing

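For RNA, 5 members passed between EN and CV, and 3 with library totals, spike-ins, TPM + 1 or TPM + 5. Between EN and ENR 3 passed (all lower in EN), 5 with totals, 4 with spike-ins and 2 with copies, where Tead1, Clu and Ly6a were lost and Yap1 and Lats1 were higher in EN. Between CV and ENR 4 passed, and 2 with spike-ins or copies. Leaving out each library gave 5 to 5, 3 to 3 and 4 to 4. Lats1 between EN and CV turned to -0.02 (totals) and -0.01 (spike-ins). Lats1 between EN and ENR turned to -0.30 (totals), -0.45 (spike-ins), -0.09 (TPM + 1) and -0.07 (TPM + 5). Yap1 between EN and ENR turned to 0.01 (RLE and DESeq2) and 1.01 (copies), with -0.06 to 0.03 on leaving out a library. Tead1 between CV and ENR turned to -0.02 (spike-ins), with -0.00 to 0.14 on leaving out a library. With copies, S100a6 (0.49) and Stk3 (0.36) turned between EN and ENR. Totals, spike-ins, TPM and copies shift the median of all transcripts, and 27.6%, 25.6%, 31.3% and 77.8% of called transcripts were then higher in EN than in CV, against 46% with TMM.

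H3K27ac passed at 4 member promoter regions between EN and CV, at 0 without trend, 1 with quantile normalization and 0 with a replicate block (1 to 4 on leaving out a library). Between EN and ENR 1 passed, 0 without trend and 0 with the block (0 to 1), and between CV and ENR 4 passed, 0 without trend, with quantile normalization or with the block (0 to 3). The cause was not tested. H3K4me3 gave 0 to 2, 0 to 1 and 0 to 1 on leaving out a library, and ATAC 4 to 6, 2 to 2 and 3 to 3. Replicate numbers were not taken to pair the libraries, since not every same-numbered pair correlated above 0.1: the range was -0.059 to 0.095 in RNA (0 of 12 pairs above) and -0.052 to 0.036 in H3K27ac (0 of 5). In ATAC all 12 pairs were positive (0.07 to 0.46, 8 of 12 above 0.1) and 9 of 12 libraries correlated best with their own number, a hint from the data and not from the design. With the replicate block the ATAC counts were 6, 2 and 3 against 5, 2 and 3, and no member ATAC or RNA call was lost. Low counts limit Ly6a, Clu and Tead1 in EN.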

Other observations

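Interferon response genes were measured for 16 of 18 genes. Between EN and CV 8 rose, 2 fell (Bst2 and Oas1a) and 6 did not pass, with a median log2 difference of 0.69 (35.2% of all transcripts rose and 41.2% fell). Ifit3 rose by 1.97, Irf1, an interferon-induced transcription factor, by 1.78, Irf7 by 1.33 and Psmb8, an immunoproteasome subunit, by 1.23. B2m, the light chain of MHC class I, had 199 CPM in CV, 150 in ENR and 446 in EN. Bst2 (tetherin) ran the other way, with 14.9, 2.18 and 1.2 CPM (EN against CV -3.57, adjusted p = 1.2e-09), as did Ly6a. Between EN and ENR 10 rose and 0 fell by edgeR (35.5% and 37.2% of transcripts), and between CV and ENR 7 were higher and 2 lower in CV (30.2% and 29.8%).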
